A study of Mus musculus with 8 samples.

Results

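The mu-class glutathione S-transferase genes of the mouse, Gstm1 to Gstm7, were followed in RNA-seq data from primary cortical astrocytes in which Gstm1 was the gene targeted for knockdown. Membership was read from the gene symbol, and no measured value entered that rule. All 7 were found in each library, among 54146 genes. The data comprised 8 libraries, with 2 biological replicates in each of 4 groups. Control and GSTM1 KD astrocytes were each profiled without a stimulus (the basal level) and after 6 h of TNF-α at 50 ng/ml. The cells came from the cortices of C57BL/6 pups in the first postnatal days. GSTM1 KD cells carried a lentivirus vector with a short hairpin RNA (shRNA) against Gstm1, and control cells carried one with a non-silencing shRNA. All groups were therefore infected, selected with puromycin and depleted of CD11b-positive microglia. The target site of the hairpin and the number of hairpins used are not given in the sources used here. What a replicate number stands for (a litter, a culture or a day) is not given either.

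Glutathione S-transferases join the tripeptide glutathione to electrophilic compounds, among them products of lipid peroxidation and quinones, which makes these compounds more soluble and less reactive. The conjugates leave the cell through ABC transporters and are trimmed to mercapturic acids. The mu class is a family of cytosolic dimers whose genes stand in tandem in one cluster, and many glutathione genes are targets of the transcription factor NRF2. In the brain, astrocytes are a main site of glutathione synthesis and of mu-class enzymes.

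Total expected counts (the estimated number of fragments per library) ranged from 17349676 to 34434633, and 19371 to 21557 genes had a count. The 10 astrocyte markers examined were all detected in every library. Their summed TPM (transcript abundance per length, scaled to the same total in each library) at the basal level was 1793 and 4129 in control and 4131 and 6236 in GSTM1 KD. After TNF-α it was 1772 and 3942 in control and 3913 and 5945 in GSTM1 KD. Of the markers of microglia, Aif1 reached 0.31 TPM at most and Cx3cr1 0.19 TPM, while Csf1r reached 1.07, Tmem119 1.14 and Trem2 2.52 TPM. Averaged over both states, 2 of 6 tested microglial genes were called lower by edgeR and 0 higher, where 19.6% of all genes were lower. The summed list of 9 microglial genes, led by Cd68, was 7.83 to 12.64 TPM in control and 6.56 to 8.86 TPM in GSTM1 KD without stimulation. With TNF-α that sum was 9.14 to 11.13 TPM in control and 4.87 to 8.26 TPM in GSTM1 KD. The summed oligodendrocyte-lineage list, in which Olig1 was the most abundant gene and Mog and Sox10 stayed at or below 0.24 TPM, was lower in GSTM1 KD (423.4 to 441.4 TPM basal, 340.4 to 351.8 TPM with TNF-α) than in control (532.9 to 595.6 and 447.9 to 478.6 TPM). The summed choroid plexus list was 0.85 to 3.04 TPM in the control libraries and 4.75 to 9.67 TPM in the GSTM1 KD libraries, mostly from Folr1, while Ttr reached 0.92 TPM at most. Folr1 was called higher in both states (6.35-fold and 6.86-fold, edgeR adjusted p = 0.0476 and 0.033), with a log2 fold change of 2.13 to 3.72 (basal) and 2.09 to 3.74 (TNF-α) over fits that left out 1 library. With TNF-α its call was lost with effective lengths as offsets (adjusted p = 0.102) and with limma on TPM (adjusted p = 0.0776). The summed endothelial list was 5.6 to 6.29 TPM in basal control and 3.12 to 3.9 TPM in basal GSTM1 KD, and 6.75 to 8.22 and 3.98 to 5.22 TPM with TNF-α. Flt1 and Cdh5 had lower means in GSTM1 KD in both states, but Kdr had higher ones. The means of Kdr were 0.275 TPM in control and 0.735 TPM in GSTM1 KD (basal), and 0.315 and 0.785 TPM with TNF-α. Averaged over both states, 1 of 4 tested endothelial genes was called higher and 2 lower by edgeR, where 20.1% and 19.6% of all genes were. The ependymal sum was 95.14 to 155.5 TPM in basal control and 139.7 to 153.2 TPM in basal GSTM1 KD, and 80.46 to 105.7 and 125.2 to 138.4 TPM with TNF-α. Neuronal sums (163.6 to 229.5 TPM over the 8 libraries) and those of fibroblasts and mural cells (59.84 to 144.9 TPM) overlapped between control and GSTM1 KD in each state, although the fibroblast and mural sum was lower in GSTM1 KD than in control of the same replicate number in both states. Called by edgeR among its 4 tested genes were Col1a2, a chain of type I collagen, lower in both states (log2 fold change -1.13 and -0.99, adjusted p = 0.0352 and 0.025), and Pdgfrb, a receptor of mural cells, higher with TNF-α (0.81, adjusted p = 0.0337; lost with limma on TPM). Of 6 tested oligodendrocyte-lineage genes, the transcription factor Olig2 was called lower in both states (-0.85 and -1.14, adjusted p = 0.0251 and 0.0101) and Olig1 with TNF-α (-0.44, adjusted p = 0.0497). The call of Olig1 was lost with other scalings, with at least 10 counts in every library, with effective lengths as offsets and with limma (adjusted p from 0.0508 to 0.0704). The part of these differences in the results that follow was not tested. In bulk RNA, fewer cells of a type and less RNA per cell cannot be told apart.

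In the GENCODE M21 annotation of GRCm38 the 7 genes span 149074 bases of chromosome 3, from chr3:107895821-108044894. Gstm5 comes first, at chr3:107895821-107898686 on the plus strand, and the other 6 lie on the minus strand. They follow in the order Gstm7 (chr3:107926334-107931817), Gstm6 (chr3:107938847-107943749), Gstm3 (chr3:107963696-107969283), Gstm2 (chr3:107981702-107986453), Gstm1 (chr3:108012255-108017973) and Gstm4 (chr3:108040408-108044894). The principal transcript of each gene has 8 exons. Its coding sequence is 654 bases long, without the stop codon, in each gene except Gstm5, where it is 672 bases.

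The coding sequences of the members are alike, and how alike they are bears on whether a read can be assigned to 1 gene and whether a hairpin could meet more than 1 transcript. Over the 21 pairs, identity in a global alignment ranged from 69.5% (Gstm3 with Gstm5) to 89.4% (Gstm1 with Gstm3). Gstm1 shared 86.1% of aligned bases with Gstm2, 83.2% with Gstm6, 83.1% with Gstm7, 81% with Gstm4 and 71.2% with Gstm5. The opening stretch of each coding sequence shows this, printed 5′ to 3′ over 30 bases, with capitals at bases that differ from Gstm1. For Gstm5 the stretch starts at coding base 10, where its frame lines up with the start of the others.
Gstm1: atgcctatgatactgggatactggaacgtc
Gstm2: atgcctatgaCactAggTtactggGacAtc
Gstm3: atgcctatgaCactgggCtaTtggaacACc
Gstm4: atgcctatgaCactgggTtactggGacAtc
Gstm5: aAgTctatgGtTctgggTtactggGaTAtc
Gstm6: atgccCGtgaCTctgggTtaTtggGaTAtc
Gstm7: atgccCatgaCactgggTtactggGacAtc
Gstm4 differed from Gstm1 at 4 of these bases, Gstm2, Gstm3 and Gstm7 at 5 each, Gstm5 at 8 and Gstm6 at 9.

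**Figure D1:**
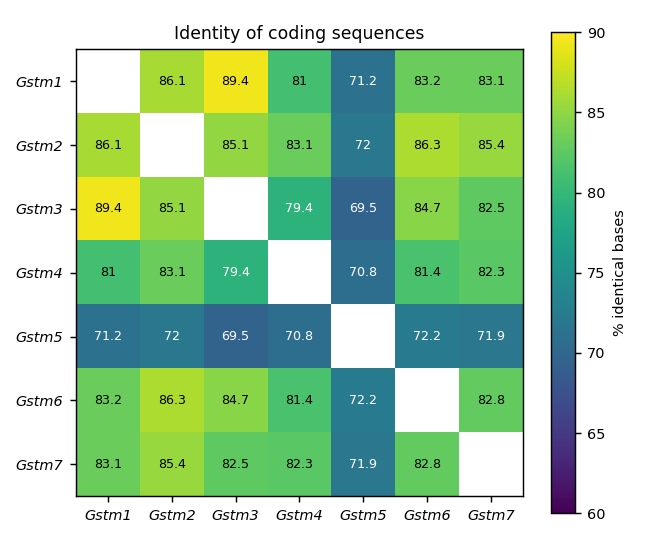
Percent of identical bases between the coding sequences of each pair of Gstm genes, with colour and number giving the same value. Gstm5 has the lowest values, from 69.5% to 72.2%, and Gstm1 with Gstm3 the highest, 89.4%.

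Over whole transcripts, stretches of 21 bases, a usual length for the target of an shRNA, were compared. Of the 1491 such stretches in the annotated transcripts of Gstm1, Gstm3 also held 18.2%, Gstm2 4.36%, Gstm6 2.35%, Gstm7 1.61%, Gstm4 0.671% and Gstm5 0%. At the length of a read, 100 bases, identity was rarer. Of the 1570 stretches of Gstm1, 92 (5.86%) were also found in the transcripts of another gene, namely Gstm3 (20 stretches) and the pseudogene loci Gstm2-ps1 and Gm8834. Gstm4 and Gstm7 shared no stretch of 100 bases with any other gene, and Gstm2 shared 6 of 1680. For Gstm5, 79 of 1417 (5.58%) were shared with 4933431E20Rik, named AC079042.1 in the deposited tables, an antisense gene on the opposite strand whose start overlaps that of Gstm5. The expected counts of the members were within 0.12 of a whole number in every library. In basal control replicate 1, Gstm5 had 1249.88 and AC079042.1 626.12, fractions that complete each other, as when fragments are divided between genes. A count near a whole number does not show how many fragments could belong to more than 1 gene. Gstm2-ps1 had 0 to 7 counts per library.

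Promoter windows of 300 bases (RefSeq, GRCm38.p6, 250 bases before and 50 after a start site) were held for all 7 members, 12 windows in all. They were searched on both strands for TGACNNNGC, the core of the antioxidant response element bound by NRF2, and for TATAAA, the TATA box. The first occurred in 2 of the 12 windows, against 12.4% of 32851 mouse windows, and the second in 3, against 13.6%. Windows of the same gene can overlap, as those of Gstm7 do, so the 12 are not independent. No trait of the members was read from counts this small. The matches fell in Gstm1, Gstm5 and Gstm7. Some are printed with 30 bases each, on the strand of the gene, with the motif in capitals.
Gstm5, position -42 from the start site, chr3:107895802-107895831: caccgcccacTGACCACGCggagggcgggt
Gstm7, position -129, chr3:107931724-107931753: tctgaagaccTGACAAAGCgaagccaatcc
Gstm1, position -30, chr3:108017829-108017858: tagtagtctgTATAAAgtcacaactccaaa
The other TATAAA matches were at position 40 of Gstm5 and -231 of Gstm7. Each position counts from the start site of its own window, and a member can have several. The Gstm7 matches come from 2 windows, chr3:107931565-107931864 (position -129) and chr3:107931768-107932067 (position -231). By the GENCODE spans given above, the printed stretches of Gstm7 and Gstm1 lie inside those genes and not before them. A match is a run of letters and not evidence of binding.

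Gstm1 was the most abundant member in control astrocytes by a wide margin, and Gstm5 in GSTM1 KD astrocytes. Without stimulation the TPM of Gstm1 was 372.78 and 618.83 in the 2 control libraries and 49.74 and 53.75 in the 2 GSTM1 KD libraries. After TNF-α it was 337.74 and 626.71 in control and 40.45 and 39.36 in GSTM1 KD. Every GSTM1 KD library was thus far below every control library, and replicate 2 was the higher of the 2 control libraries in both states.

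Gstm5, a divergent mu-class enzyme, without stimulation had 84.32 and 90.06 TPM in control and 103.55 and 112 TPM in GSTM1 KD. After TNF-α it had 72.97 and 93.06 TPM in control and 106.82 and 109.5 TPM in GSTM1 KD. The 4 GSTM1 KD libraries all lay above the 4 control libraries. It was the second most abundant member in control and the first in GSTM1 KD.

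The other 5 members were low. The TPM of Gstm4 stayed between 8.11 and 9.84 in all 8 libraries, the narrowest range relative to its level among the members detected. Gstm2 had basal levels of 2.98 and 3.33 TPM in control and 8.38 and 11.6 TPM in GSTM1 KD, and 2.12 and 5.74 TPM in control and 5.96 and 10.64 TPM in GSTM1 KD after TNF-α. The ranges of Gstm2 did not overlap in either state, although the gap after TNF-α was small. How many of all genes had ranges apart in this way was not counted, here or in the passages below.

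The basal level of Gstm7 was 2.78 and 5.89 TPM in control and 11.99 and 13.99 TPM in GSTM1 KD. After TNF-α it had 2.45 and 9.55 TPM in control and 8.61 and 16.24 TPM in GSTM1 KD, so that these groups overlapped on the TPM scale. The deposited effective length of Gstm7, by which TPM is scaled, differed widely between libraries, from 534.2 bases in control replicate 2 after TNF-α to 1146.24 bases in control replicate 1 at the basal level. On the scale of CPM (counts relative to the library's total, with TMM factors), which leaves this length out, Gstm7 had 1.64 and 3.07 in control and 4.85 and 6.61 in GSTM1 KD after TNF-α, with no overlap.

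Gstm6 lay between 1.24 and 3.65 TPM, with 10 to 38 counts per library. Gstm3 had 0 to 2 counts in every library, under the floor of 3 counts used here (0.0848 to 0.1805 CPM), and it was not detectable at this depth. Gstm3 did not pass the filter on low counts in any comparison, and the other 6 members passed in each.

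Within each group, neighbours in the order of mean TPM were compared by their ranges. In control at the basal level the order was Gstm1 (mean 495.8 TPM), Gstm5 (87.19), Gstm4 (8.385), Gstm7 (4.335), Gstm2 (3.155), Gstm6 (1.76) and Gstm3 (0.03), and only Gstm7 and Gstm2 overlapped. In control after TNF-α the order was the same, and Gstm4, Gstm7, Gstm2 and Gstm6 overlapped from each to the next. In basal GSTM1 KD it was Gstm5 (107.78), Gstm1 (51.745), Gstm7 (12.99), Gstm2 (9.99), Gstm4 (9.055), Gstm6 (2.14) and Gstm3 (0.04), with overlap between Gstm2 and Gstm4. In GSTM1 KD after TNF-α the order was the same, and Gstm7, Gstm2 and Gstm4 overlapped from each to the next.

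**Figure D2:**
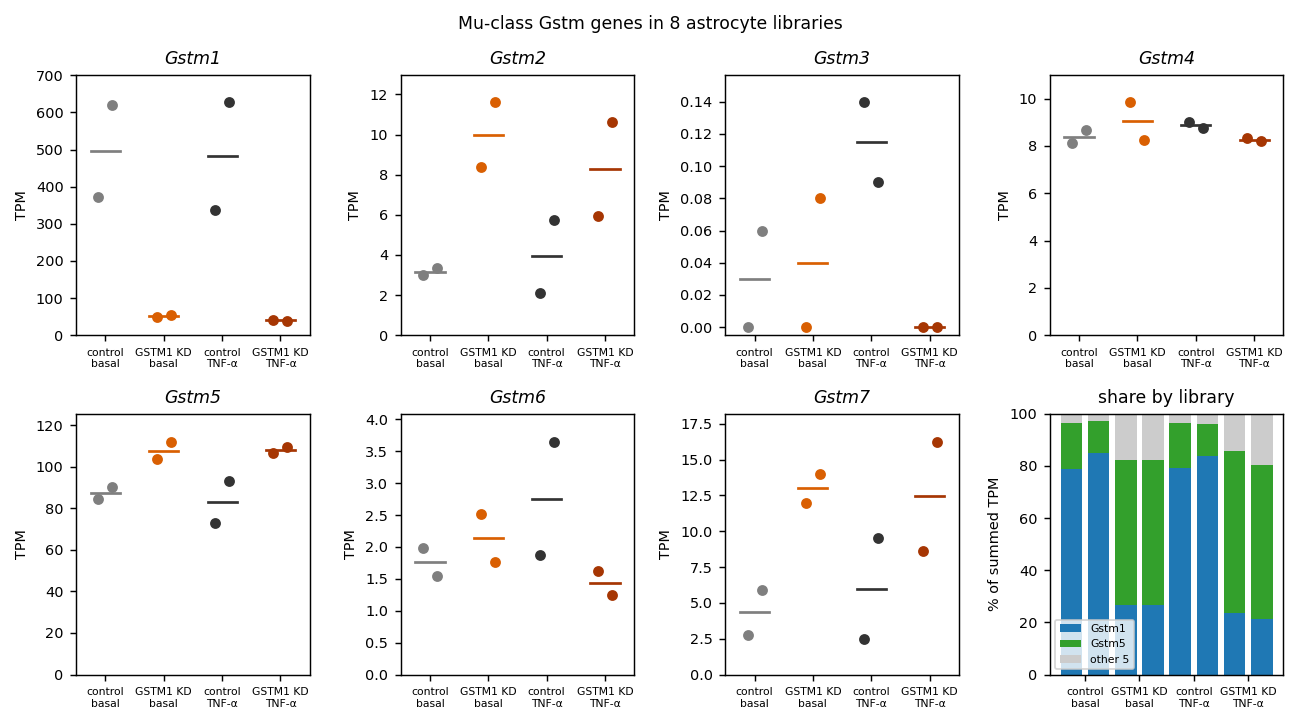
TPM of each Gstm gene in the 8 libraries (points, with replicate 1 to the left of replicate 2, and a line at the group mean), and the share of the summed Gstm TPM by library. Gstm1 lies at 337.74 TPM or more in every control library and at 53.75 TPM or less in every GSTM1 KD library, while Gstm4 stays between 8.11 and 9.84 TPM.

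The make-up of the family changed with the level of Gstm1. The summed basal TPM of the 7 genes was 472.95 and 728.37 in control and 186.02 and 201.45 in GSTM1 KD, and 426.31 and 747.58 in control and 171.79 and 185.17 in GSTM1 KD after TNF-α. Gstm1 made up 81.9% ± 4.34 (SD, n = 2) of the basal sum in control and 26.7% ± 0.0403 (SD, n = 2) in GSTM1 KD. After TNF-α its share was 81.5% ± 3.26 (SD, n = 2) in control and 22.4% ± 1.62 (SD, n = 2) in GSTM1 KD. Without Gstm1, the basal levels of the other members summed to 100.17 and 109.54 TPM in control and 136.28 and 147.7 TPM in GSTM1 KD, and to 88.57 and 120.87 TPM and 131.34 and 145.81 TPM after TNF-α. This sum was higher in every GSTM1 KD library than in any control library, and the sum with Gstm1 was lower in every one.

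The first comparison asks how the family differed between GSTM1 KD and control at the basal level. Gstm1 had 8153 and 9644 counts in control and 676 and 626 in GSTM1 KD, a fall of 10.1-fold (log2 fold change -3.33, SE 0.259, adjusted p = 0.0132 by the quasi-likelihood test of edgeR, adjusted over all genes by Benjamini-Hochberg). Gstm2 had 51 and 41 counts in control and 91 and 107 in GSTM1 KD, a rise of 3.04-fold (log2 fold change 1.60, SE 0.301, adjusted p = 0.0345 by edgeR). The human enzyme of the same name is known for conjugating quinones derived from dopamine. The paper cites the variability of GSTM genes as blurring which human genes correspond to those of other mammals. Gstm7 had 66 and 77 counts in control and 121 and 146 in GSTM1 KD, in libraries of lower total count. Its log2 fold change was 1.37 (SE 0.342), with an adjusted p of 0.062 by edgeR and of 0.00873 by DESeq2. It also passed in edgeR with a replicate block, though what a replicate number marks is not given.

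The other 3 tested members were close to control at the basal level. Gstm5 had a log2 fold change of 0.24 (SE 0.112, edgeR adjusted p = 0.201), although its CPM ranges, 35.3 and 37.1 in control and 41.4 and 44.3 in GSTM1 KD, did not overlap. Gstm4 had 0.03 (SE 0.208) and Gstm6 0.05 (SE 0.372). In all, 2 of the 6 members tested passed the threshold of 0.05, where 10.2% of all 14899 genes tested passed. By direction, 4.6% of all genes were called higher and 5.62% lower, and among members 1 was higher and 1, the targeted gene, lower.

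Leaving out a single library affected these calls. The call of Gstm1 was lost without GSTM1 KD replicate 1 (log2 fold change -3.28, edgeR adjusted p = 0.0833) and without GSTM1 KD replicate 2 (-3.40, adjusted p = 0.0999). In those fits, which rest on 1 GSTM1 KD library, 1 and 3 of all genes passed. The call of Gstm2 was lost in the same fits (1.82, adjusted p = 0.12, and 1.35, adjusted p = 0.277), and also when all 8 libraries were fitted together (1.60, adjusted p = 0.0672). Leaving out a control library kept the call of Gstm1, with values of -3.65 without replicate 1 and -2.94 without replicate 2. Gstm7 passed without control replicate 2 (1.73, adjusted p = 0.00424), in a fit with 1 control library that passed 5256 of all genes.

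After TNF-α stimulation Gstm1 was again lower than control. It had 4851 and 6492 counts in control and 527 and 405 in GSTM1 KD, a fall of 12.8-fold (log2 fold change -3.68, SE 0.315, edgeR adjusted p = 0.00981). This call was lost without GSTM1 KD replicate 1 (-3.70, adjusted p = 0.0648). It held without control replicate 1 (-4.05) and control replicate 2 (-3.16). Gstm1 was the only member called of 6 tested, against 16.2% of all 14593 genes, of which 7.26% were higher and 8.92% lower.

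Gstm7 and Gstm2 had positive values after TNF-α too, without passing in the fit reported, which has no replicate block. Both passed with a replicate block, but the labels do not say what a replicate number marks. Gstm7 had 38 and 51 counts in control and 105 and 115 in GSTM1 KD, with a log2 fold change of 1.28 (SE 0.379, edgeR adjusted p = 0.0735, DESeq2 adjusted p = 0.0295). Gstm2 had 22 and 47 counts in control and 62 and 87 in GSTM1 KD, with a log2 fold change of 1.06 (SE 0.571, edgeR adjusted p = 0.236). Over the fits that left out 1 library, the lowest and highest values of both genes came without a control library. Without control replicate 2 both genes passed, with log2 fold changes of 2.01 for Gstm2 (adjusted p = 0.0167) and 1.77 for Gstm7 (adjusted p = 0.00862), and so did Gstm5 (0.50, adjusted p = 0.015). Without control replicate 1 the value of Gstm2 was 0.44, that of Gstm7 0.87 and that of Gstm5 0.15. A fit with 1 control library takes its spread from the 2 GSTM1 KD libraries alone, and 5028 of all genes passed without control replicate 2.

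Among the remaining members after TNF-α, Gstm5 had a log2 fold change of 0.31 (SE 0.143, edgeR adjusted p = 0.178), with CPM of 30.5 and 39.2 in control and 43.8 and 44.1 in GSTM1 KD. Gstm4 had -0.06 (SE 0.22). Gstm6 had 20 and 25 counts in control and 15 and 10 in GSTM1 KD, with a log2 fold change of -0.89 (SE 0.446, edgeR adjusted p = 0.212), and -0.45 without control replicate 2 to -1.25 without control replicate 1. Its CPM ranges did not overlap in this state, with GSTM1 KD lower, while they did at the basal level.

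Averaged over both states in a fit of all 8 libraries, 4 of the 6 members tested were called. Gstm1 was lower (log2 fold change -3.49, SE 0.246, edgeR adjusted p = 0.000214). Gstm2 was higher (1.34, SE 0.359, adjusted p = 0.0233), as were Gstm7 (1.33, SE 0.275, adjusted p = 0.00916) and Gstm5 (0.29, SE 0.0901, adjusted p = 0.0388). Gstm4 stayed at 0.00 (SE 0.13) and Gstm6 at -0.41 (SE 0.283, adjusted p = 0.284). In this comparison 39.8% of all 15332 genes were called, 20.1% higher and 19.6% lower, so a call is common here. The fit treats all libraries as independent, which holds only if basal and stimulated libraries do not share cultures.

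The calls of Gstm1 held in each of the 16 alternative fits of this average. That of Gstm7 held in 15 and was lost with effective lengths as offsets (1.32, edgeR adjusted p = 0.0562), and that of Gstm2 held in 13 and was lost without control basal replicate 1, GSTM1 KD basal replicate 2 or GSTM1 KD replicate 2 after TNF-α, in which its log2 fold change was 1.10 to 1.31. The call of Gstm5 held in 8 of 16 and was kept in only 1 of the 8 fits that left out a library, that without control replicate 2 after TNF-α. Its log2 fold change ran from 0.19 to 0.36 over these 8 fits.

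**Figure D3:**
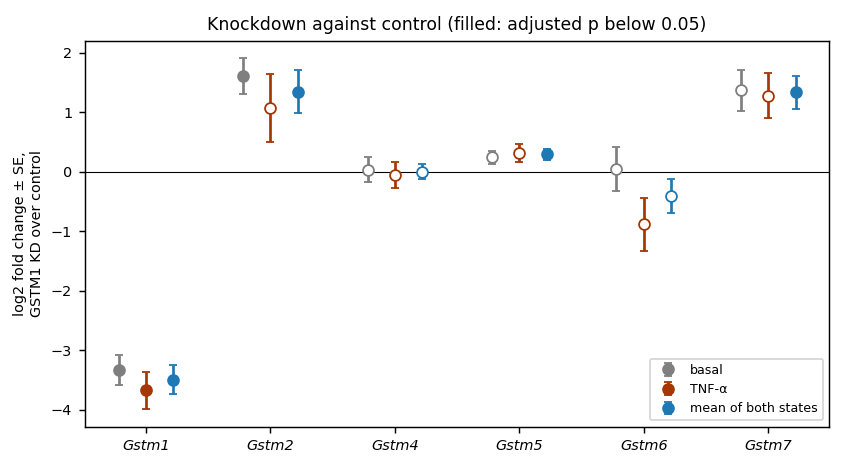
Log2 fold change (± SE) of each tested Gstm gene in GSTM1 KD over control in the basal state, with TNF-α and averaged over both, with filled points at an edgeR adjusted p below 0.05. Gstm1 lies between -3.68 and -3.33 in the 3 comparisons, Gstm2 and Gstm7 lie above 1 in each, and Gstm4 lies near 0.

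The astrocyte marker sum also differed between the groups. It was higher in GSTM1 KD than in control of the same replicate number in both states, and higher in replicate 2 than in replicate 1 of each group. Gfap, the intermediate filament of reactive astrocytes, made up most of the difference, with a basal mean of 1456 TPM in control and 3259 TPM in GSTM1 KD (log2 fold change 1.10, edgeR adjusted p = 0.234). Glul, glutamine synthetase, had basal means of 275.8 and 496.2 TPM and Aldh1l1 of 104.7 and 228.7 TPM. Aqp4 (384.8 and 379.8 TPM) and Slc1a3 (346.5 and 342.0 TPM) were nearly level, and Sox9 had 148.6 and 109.6 TPM. Of the 10 markers, S100b was called lower in both states (-1.44 and -1.71 on the log2 scale, edgeR adjusted p of 0.0269 and 0.0387), and none was called higher in either state by itself. How far the marker levels bear on the members was not tested.

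No member was called in the response to TNF-α. In control astrocytes, 2.63% of all 15332 genes tested changed with TNF-α by edgeR, and 0 of the 6 members did by edgeR or DESeq2. At an unadjusted edgeR p below 0.05 there were 0 members, and 1920 of all genes. The log2 fold changes over basal were -0.02 (SE 0.311) for Gstm1, -0.06 (SE 0.128) for Gstm5, -0.05 (SE 0.184) for Gstm4, -0.06 (SE 0.4) for Gstm7, 0.28 (SE 0.525) for Gstm2 and 0.29 (SE 0.384) for Gstm6. In GSTM1 KD astrocytes 2.65% of all genes changed and again 0 of the 6 members by edgeR or DESeq2. The values there were -0.34 (SE 0.328) for Gstm1, 0.04 (SE 0.127) for Gstm5, -0.12 (SE 0.185) for Gstm4, -0.13 (SE 0.372) for Gstm7, -0.24 (SE 0.484) for Gstm2 and -0.63 (SE 0.416) for Gstm6. In GSTM1 KD astrocytes the CPM of Gstm1 was 29.0 and 31.4 before TNF-α and 24.3 and 23.3 after it, without overlap. That of Gstm6 was 1.116 and 0.852 before and 0.693 and 0.575 after, also without overlap. Neither gene was called (edgeR adjusted p = 0.934 for Gstm1 and 0.773 for Gstm6). The share of all genes apart in this way was not counted. The precision was best for Gstm5, and the wide errors of Gstm2, Gstm6 and Gstm7 leave room for changes that these libraries could not show.

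The difference between the responses to TNF-α in GSTM1 KD and control was also tested. It was called for 0 of 15332 genes (0%) by edgeR, with 295 at an unadjusted p below 0.05 and 27 called by DESeq2, and for 0 members by either tool. The difference was -0.92 (SE 0.566) for Gstm6 and -0.52 (SE 0.714) for Gstm2, and 0.09 (SE 0.18) for Gstm5, the most precise. Without a control library of the TNF-α state, that of Gstm6 was -0.50 (without replicate 2) or -1.28 (without replicate 1), and that of Gstm2 0.42 or -1.13. The effect of the knockdown on a member in one state was thus not shown to differ from that in the other.

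Other glutathione S-transferases were counted from a list of the alpha, pi, theta, omega, zeta, kappa and microsomal classes with Gdap1, Gstcd and Hpgds, genes related to the transferases. At the basal level 0 of 13 tested passed by edgeR, where 10.2% of all genes did, and 4 had an unadjusted p below 0.05, as did 4712 of all 14899 genes. After TNF-α, 1 of 12 was higher and 1 lower, where 7.26% and 8.92% of all genes were. Gsta4, an alpha-class enzyme specialised in 4-hydroxynonenal and related lipid aldehydes, was higher (log2 fold change 0.58, SE 0.143, edgeR adjusted p = 0.0479). Gsto1, an omega-class enzyme with thiol transferase activity, was lower by 2.20-fold (-1.14, SE 0.205, adjusted p = 0.0255). Both had values of the same sign and similar size at the basal level, 0.54 (adjusted p = 0.0589) and -1.10 (adjusted p = 0.05). The list's median was -0.10 (basal) and -0.01 (TNF-α), beside a median over all genes of -0.00 and -0.01.

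Gstp1, the pi-class enzyme, had a level near that of Gstm1 in control. Its basal TPM was 424 ± 16.2 (SD, n = 2) in control and 416 ± 16.6 (SD, n = 2) in GSTM1 KD. In basal control libraries the summed TPM of the 7 mu-class genes was above it, and in GSTM1 KD libraries it was below. The basal level of Gsta4 was 142 ± 23.8 TPM (SD, n = 2) in control and 216 ± 1.17 TPM (SD, n = 2) in GSTM1 KD.

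Genes that supply glutathione (synthesis, recycling and precursor transport) were counted next. At the basal level 0 of 13 tested passed by edgeR and after TNF-α 1 of 13, where 10.2% and 16.2% of all genes passed. At the basal level 2 of the 13 had an unadjusted p below 0.05, as did 4712 of all 14899 genes. The gene called after TNF-α was Gss, glutathione synthetase, the last step of glutathione synthesis, lower by 1.39-fold (log2 fold change -0.48, SE 0.113, edgeR adjusted p = 0.045). Its value at the basal level was -0.48 (adjusted p = 0.0814). The median over the list was -0.04 in both states.

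Genes for export of conjugates and the mercapturate pathway lay mostly below 0. At the basal level 6 of 8 tested had a negative value and 0 passed by edgeR, where 10.2% of all genes did. An unadjusted p below 0.05 was found for 4 of the 8 and for 4712 of all 14899 genes. After TNF-α, 1 of 7 was lower, where 8.92% of all genes were. This was Abcc1, the transporter MRP1 that exports glutathione conjugates (1.58-fold, log2 fold change -0.66, SE 0.0891, adjusted p = 0.0152 by edgeR). The median over the list was -0.32 and -0.31 in the 2 states, beside -0.00 and -0.01 over all genes. Abcc1 also rose with TNF-α by edgeR, with a log2 fold change of 0.63 in control (adjusted p = 0.00764) and one of 0.39 in the knockdown (adjusted p = 0.0432).

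Among NRF2, its regulators and core targets, 1 of 17 was called at the basal level and 2 of 17 after TNF-α, all lower, where 5.62% and 8.92% of all genes were lower. Hmox1, heme oxygenase 1, fell 2.21-fold at the basal level (log2 fold change -1.14, SE 0.246, edgeR adjusted p = 0.0442) and 2.01-fold after TNF-α (-1.01, SE 0.177, adjusted p = 0.0245). Txnrd1, thioredoxin reductase 1, fell 1.94-fold after TNF-α (-0.96, SE 0.206, adjusted p = 0.0376). The list's median was -0.13 and -0.08 in the 2 states. In the average over both states the calls were 2 higher and 1 lower of 13 other transferases, 1 and 2 of 13 supply genes, 1 and 5 of 8 export and mercapturate genes, and 1 and 4 of 17 NRF2 genes, where 20.1% of all genes were higher and 19.6% lower. After TNF-α, Gsta4 and Gss lost their calls with effective lengths as offsets (edgeR adjusted p of 0.0522 and 0.0618), and Gss also with library size only and with limma on TPM. Hmox1 lost its basal call with limma (-1.04, adjusted p = 0.0574).

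**Figure D4:**
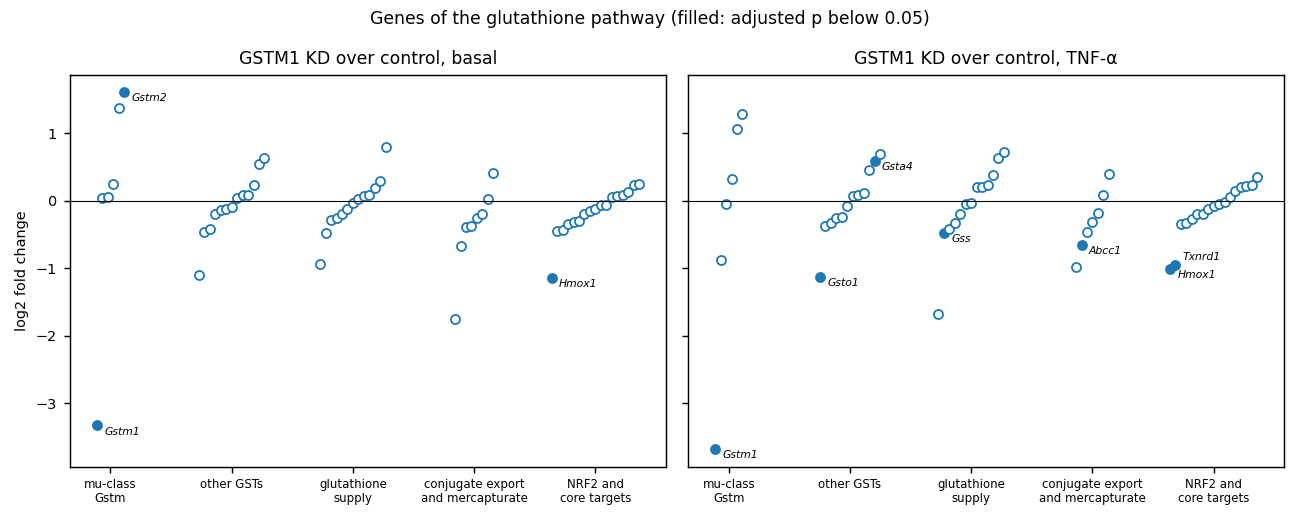
Log2 fold change in GSTM1 KD over control for each tested gene of 5 lists (1 point a gene, ordered within its list) in each state, with filled points at an edgeR adjusted p below 0.05. Most genes of the 4 lists beyond the mu class lie within 1 log2 unit of 0, and Gstm1 is the lowest point in both states.

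The genes beside the cluster were described in the same way, as the 5 tested genes nearest on each side, of which 9 are reported. No tested gene other than members lay inside, and the 9 annotated loci between the members, all pseudogenes or noncoding, had 0 counts except the lincRNA Gm12498, just upstream of Gstm1, with 1 count in 1 library. At the basal level 1 of these 9 flanking genes was lower and 0 higher, where 5.62% and 4.6% of all genes were. After TNF-α 5 were lower and 0 higher, where 8.92% and 7.26% of all genes were. The median over the 9 was -0.38 and -0.40 in the 2 states. In each state 7 of the 9 flanking genes had negative values. Of the members, Gstm2, Gstm5 and Gstm7 had positive values in both states and Gstm1 negative ones. Gstm4 and Gstm6 were near 0 at the basal level (0.03 and 0.05) and negative after TNF-α (-0.06 and -0.89).

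Amigo1, a neuronal adhesion protein right of the cluster, had basal levels of 27.0 and 31.8 CPM in control and 14.38 and 11.97 CPM in GSTM1 KD (log2 fold change -1.15, SE 0.167, edgeR adjusted p = 0.0229). After TNF-α it had 21.8 and 20.6 CPM in control and 10.7 and 9.60 CPM in GSTM1 KD (-1.09, SE 0.152, adjusted p = 0.0164). The groups did not overlap in either state. Amigo1 was the flanking gene called at the basal level.

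Csf1, the macrophage colony-stimulating factor, was lower in GSTM1 KD after TNF-α (log2 fold change -0.71, SE 0.127, edgeR adjusted p = 0.0251). Csf1 rose with TNF-α in control (1.96, adjusted p = 0.00517) and also in the knockdown (1.84, adjusted p = 0.00483). Ampd2, an AMP deaminase (-0.52, adjusted p = 0.0252), Gnai3, an inhibitory G protein subunit (-0.40, adjusted p = 0.045), and AC079042.1 (-0.89, adjusted p = 0.0298) were the other 3 called after TNF-α. The values of AC079042.1 move with its effective length, and with lengths as offsets it did not pass (-0.46, adjusted p = 0.29). Amigo1 (-0.85, adjusted p = 0.0861) and Gnai3 (-0.39, adjusted p = 0.0599) did not pass with these offsets either, and with limma on TPM Ampd2 was lost as well as these 3. Gnai3 was also lost with library size only (-0.37, adjusted p = 0.0551). The flanking, list and marker genes named made up 6 calls without stimulation and 17 with TNF-α. When either GSTM1 KD library of that state was left out, none of them passed (edgeR adjusted p from 0.0983 to 0.281 basal and from 0.068 to 0.395 with TNF-α). Those fits rest on 1 GSTM1 KD library and passed 0 to 94 of all genes. Over all fits without 1 library the log2 fold change was -1.29 to -1.04 for Amigo1 (basal) and -0.67 to -0.65 for Abcc1 (TNF-α). Without a control library 6 of 6 held in the basal state, and with TNF-α 16 (Gss lost without replicate 1) or 17 of 17. AC079042.1 overlaps Gstm5 on the other strand and, if the counting did not use the strand, reads of the overlap cannot be told apart.

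**Figure D5:**
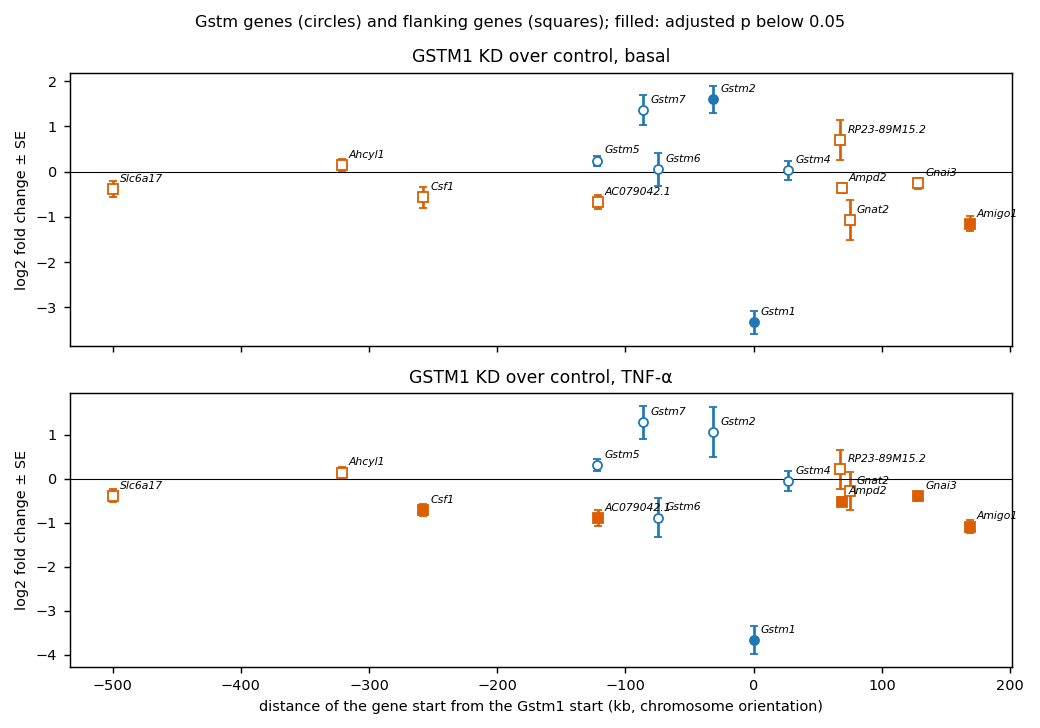
Log2 fold change (± SE) in GSTM1 KD over control for the tested Gstm genes (circles) and 9 flanking genes (squares), against the distance of each gene's start from that of Gstm1 in kilobases, in each state, with filled points at an edgeR adjusted p below 0.05. After TNF-α 5 of the 9 squares are filled, all below 0. Of the circles there, Gstm2, Gstm5 and Gstm7 lie above 0 and Gstm1, Gstm4 and Gstm6 below.

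The genes whose levels most resembled those of the 2 most abundant members were found by correlation of log2(CPM + 1) over the 8 libraries, among 15326 genes. For Gstm1 they included Atf6b (r = 0.997), Coro7 (0.997), Pear1 (0.995) and Tatdn3 (0.995). Atf6b, a membrane-bound transcription factor of the endoplasmic reticulum, had basal levels of 46.5 and 52.5 CPM in control and 25.7 and 24.3 CPM in GSTM1 KD. For Gstm5 they were Anxa2 (r = 0.991), Gria4 (0.987), Bdh2 (0.984), Ywhae (0.984) and Clcc1 (0.981). Gria4, a subunit of AMPA-type glutamate receptors, had 1.47 and 2.35 CPM in control and 4.51 and 5.21 CPM in GSTM1 KD without stimulation. These correlations are descriptions over libraries that fall into 2 sets, control and GSTM1 KD, and carry no p-value.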

How the data were processed

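RNA from 8 libraries of primary mouse astrocytes was analysed, 2 per group. The authors made strand-specific libraries, aligned reads to GRCm38 with STAR (version 2.5.4b, per the submitters' processing notes) and used RSEM (version 1.3.0) for quantification per gene. The expected counts they deposited are estimated fragments per gene, not normalized. The deposited TPM values are scaled by the authors' RSEM run for length and depth. The deposited effective lengths, in bases, follow the transcripts estimated in each library. Whether strand was used in counting is not given in the sources used here.

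Expected counts were rounded and tested with edgeR (version 4.0.16, R version 4.3.3): TMM factors, filterByExpr, the quasi-likelihood test and Benjamini-Hochberg adjustment over all genes tested, at 0.05. Standard errors are the log2 fold change over the root of F. Knockdown was compared on the 4 libraries of each state, and other contrasts on all 8. The floor of 3 counts covers counting error only. The p-values measure the spread between 2 replicates.

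Alternatives were DESeq2 (version 1.42.0), limma (version 3.58.1) on log2(TPM + 1), other scalings and filters, effective lengths as offsets, a replicate block, other sets of libraries, and leaving out each library. Members and lists were chosen with earlier results of these data known. Genes named are the members, called genes of the lists, 5 tested genes on each side and 5 most correlated with Gstm1 and with Gstm5. A few of these and of the listed genes are not reported here and were left out of the counts over lists, while the fits over all genes kept them. Protein sequences were not used here, so coding sequences of the GENCODE M21 principal transcripts were aligned with Biopython (version 1.88) in place of the planned protein alignment. Of the 54146 gene identifiers, 52480 (96.92%) matched GENCODE M21, including all members. The procedure was tested on simulated data. Figures were drawn with matplotlib (version 3.10.9).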

Additional observations from a re-analysis of the deposited data

How the results depend on the processing

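The log2 fold changes of the 6 tested members were recomputed in alternative fits, which gave 552 values. Of these, 474 kept their direction and their side of the threshold, 14 gained and 18 lost a call, and 46 changed sign, in each case in a gene called neither as reported nor in the alternative. The causes were not tested.

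Counts over all genes moved most. At the basal level 1524 genes passed as reported, 2522 with DESeq2, 3957 without a filter, 4712 with the replicate block, 2762 with all 8 libraries in the fit, and 1 to 5256 without single libraries. After TNF-α 2360 passed as reported, 4540 without a filter, 4302 with the replicate block, 1565 with limma on log2(TPM + 1), and 0 to 5028 without single libraries. The average of both states gave 6095 as reported and 3608 to 6533 without single libraries. The response to TNF-α in control gave 403 as reported, 761 with DESeq2, 1255 without a filter, 988 with the block, 72 on its 4 libraries alone, and 180 to 313 without single libraries. That in GSTM1 KD gave 406 as reported, 647, 1050, 808 and 691 under the same settings, and 74 to 444 without single libraries. The difference of responses gave 0 as reported, 27 with DESeq2, 134 without a filter, and 0 to 2 without single libraries. Members called numbered 0 to 3 at the basal level without single libraries. After TNF-α they numbered 3 without a filter, where 4540 of all genes passed, and 3 with the block, where 4302 passed. In both fits these were Gstm1, Gstm2 and Gstm7. With DESeq2 they numbered 2 (Gstm1 and Gstm7), and the number of all genes passing in that fit is not given here. A member is called more readily under a setting that passes more of all genes. In the average they numbered 2 with length offsets, for which the number of all genes passing is not given here either.

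With the replicate block the log2 fold change of Gstm1 was -3.29 (basal) and -3.61 (TNF-α). With the block Gstm7 passed in both states (edgeR adjusted p = 0.00147 and 0.0147), and Gstm2 passed after TNF-α (1.14, adjusted p = 0.0423). It changed no other call of a member. Libraries with the same number deviated together, with correlations of 0.248 to 0.731 over the 6 pairs of groups, but the labels do not say what a number marks.

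Several values changed sign. Gstm4 averaged over both states was -0.0083 with DESeq2, -0.0094 with its size factors, -0.0199 without a filter, -0.0055 with at least 10 counts, -0.0012 with the block, -0.0549 with length offsets, -0.0003 with limma, and -0.0936 to 0.0447 without single libraries. Gstm5 in the response of GSTM1 KD was -0.0086 with library size only. In the response of control, Gstm7 was 0.4072 and Gstm4 0.1101 with length offsets, and 0.2414 and 0.0776 with limma. Without single libraries at the basal level Gstm4 ran from -0.0965 to 0.1447 and Gstm6 from -0.1603 to 0.2633, and after TNF-α Gstm4 ran from -0.197 to 0.0757. In the response of control, Gstm1 ran from -0.5245 to 0.3861, Gstm2 from -0.6627 to 0.8904, Gstm4 from -0.0883 to 0.0012, Gstm5 from -0.2307 to 0.1092, Gstm6 from -0.1307 to 0.6501 and Gstm7 from -0.5465 to 0.3397. In that of GSTM1 KD, Gstm2 ran from -0.688 to 0.1102, Gstm4 from -0.2694 to 0.0172, Gstm5 from -0.0087 to 0.0878 and Gstm7 from -0.3615 to 0.1401. In the difference of responses, Gstm1 ran from -0.7287 to 0.1824, Gstm2 from -1.1308 to 0.4189, Gstm4 from -0.2219 to 0.0646, Gstm5 from -0.0709 to 0.266 and Gstm7 from -0.4652 to 0.4174.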
